A study of Mus musculus with 5 samples.

Results

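Large zinc finger and other duplicated gene clusters that expanded in rodents were examined for H3K9me3, a histone mark of silent chromatin, in mouse CD8+ T cells. Regions of the deposited table were taken where their start lay in 1 of 4 windows of the GRCm38 assembly, on chromosome 2 (174.8 to 178.1 Mb), chromosome 4 (145.0 to 147.95 Mb), chromosome 12 (17.5 to 24.5 Mb) or chromosome 13 (65.0 to 68.7 Mb). The windows held 476 of the 46409 regions, with 34 on chromosome 2, 169 on chromosome 4, 165 on chromosome 12 and 108 on chromosome 13. The rest of the same 4 chromosomes held 9673 regions. The rule itself uses positions and no value of the mark.

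KRAB zinc finger proteins bind DNA through arrays of zinc fingers and recruit the corepressor TRIM28 (KAP1) and the methyltransferase SETDB1, which places H3K9me3 on the target. Many of them bind endogenous retroviruses, and their genes spread by local duplication into dense clusters that differ between mammals. The clusters themselves are known to carry H3K9me3 over their gene bodies in many cell types.

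The cells were CD8+ T cells from the spleen of OTI:Cas9 mice, which carry a transgenic T cell receptor for an ovalbumin peptide and a Cas9 transgene. Cells of both groups were electroporated with ribonucleoprotein made from 300 pmol each of guide and Cas9 protein, and were left to recover for 72 h. The sgPrdm12 group, labelled Prdm12-ko, received a guide against Prdm12, which encodes a PR domain zinc finger protein linked to histone H3K9 methylation, and the sgNTC group, labelled Prdm12-wt, received a non-targeting guide. Each group had 2 CUT&Tag libraries, 1 in each of 2 batches, and CUT&Tag marks chromatin by an antibody that brings the Tn5 transposase to it. The edited cells are a bulk population, the age of the mice and what a batch stands for go unnamed in the sources, and an IgG library was left aside as not analysed here. No source used here says that the libraries came from separate animals, so a p-value measures the spread between these 4 libraries alone, and that spread may be technical. H3K9me3 counts measure neither RNA nor the edit, so they check neither the cell type nor the loss of Prdm12. Regions lay at 1 of 8 CD8 T cell marker genes (Cd2) and at 3 of 12 marker genes of other cells (Cd4, Klrb1c and Hbb-bs), which describes the mark and not expression.

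Counts in the 4 libraries are given throughout in the order sgNTC-1, sgNTC-2, sgPrdm12-1 and sgPrdm12-2. Library totals over all regions were 843673, 1060646, 2353807 and 1396201, and the median region held 7, 9, 32 and 17 counts. The 10 most covered regions of the table, none of them in the windows, took 39.8%, 44.0%, 18.4% and 22.4% of the counts, so levels are given as CPM, counts per 1e6 of the TMM-scaled library size. That size is taken from the table tested (regions, tiles or genes), and CPM is not compared between those tables. TMM sets the bulk of regions to about no change, with a median log2 fold change of -0.01 over all regions. With total counts as the scale that median was 0.56, and with the authors' constants 1.00. Every fold change is therefore relative to the genome, and a shift shared by all regions cannot be told apart from library scaling.

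Duplication can be read in the sequence of the clusters. The 250 bases before each gene's start, from RefSeq on GRCm38.p6, were compared among the genes of each window, and the closest pairs are shown because copies this alike bear on how reads can be placed. On chromosome 4, Zfp600 at chr4:146156577-146156826 and Rex2 at chr4:147021600-147021849, both on the plus strand, had 246 identical bases. Capitals mark the 4 that differ.
Zfp600: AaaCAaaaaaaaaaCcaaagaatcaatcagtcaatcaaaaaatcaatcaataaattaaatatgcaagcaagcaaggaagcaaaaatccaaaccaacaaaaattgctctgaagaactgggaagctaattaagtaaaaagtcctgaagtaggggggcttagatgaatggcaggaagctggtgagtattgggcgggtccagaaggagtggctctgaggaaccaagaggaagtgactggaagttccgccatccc
Rex2: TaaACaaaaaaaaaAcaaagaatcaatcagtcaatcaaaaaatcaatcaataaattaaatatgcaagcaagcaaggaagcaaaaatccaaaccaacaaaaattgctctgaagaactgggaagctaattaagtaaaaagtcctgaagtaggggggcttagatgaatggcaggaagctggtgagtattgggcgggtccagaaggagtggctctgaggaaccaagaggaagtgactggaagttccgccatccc
On chromosome 2, Gm4724 at chr2:175435778-175436027 on the minus strand and Gm2026 at chr2:175965105-175965354 on the plus strand were identical over all 250 bases, so 1 sequence stands for both and has no capitals.
Gm4724 and Gm2026: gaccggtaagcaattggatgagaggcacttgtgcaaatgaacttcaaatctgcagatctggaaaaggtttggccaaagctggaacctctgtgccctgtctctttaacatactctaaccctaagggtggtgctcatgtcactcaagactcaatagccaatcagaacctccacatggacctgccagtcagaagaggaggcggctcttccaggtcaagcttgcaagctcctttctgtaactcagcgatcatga
Of the 1128 pairs of genes compared in the chromosome 2 window, 9 had at least 240 identical bases. The chromosome 12 window had 2 such pairs of 1596, with 247 identical bases between Gm40847 and Gm40862, the chromosome 4 window had 2 of 378 and the chromosome 13 window had 1 of 2211. Counts over a copy this close are uncertain, because a short read can match more than 1 place and no source used here says how such reads were handled.

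The windows differed widely in how densely H3K9me3 regions lay in them. The chromosome 4 window was the densest, with 57.3 regions per Mb against 18.2 in the rest of chromosome 4. The chromosome 13 window had 29.2 per Mb against 16.5, and the chromosome 12 window 23.6 against 16.3. The chromosome 2 window had fewer than its chromosome, 10.3 per Mb against 18.7, and the whole table had 17.4. Its 34 regions all lay outside 1 empty stretch of 1.89 Mb, described below, in a window of 3.3 Mb. The density of that window as a whole therefore depends on the empty stretch.

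**Figure D1:**
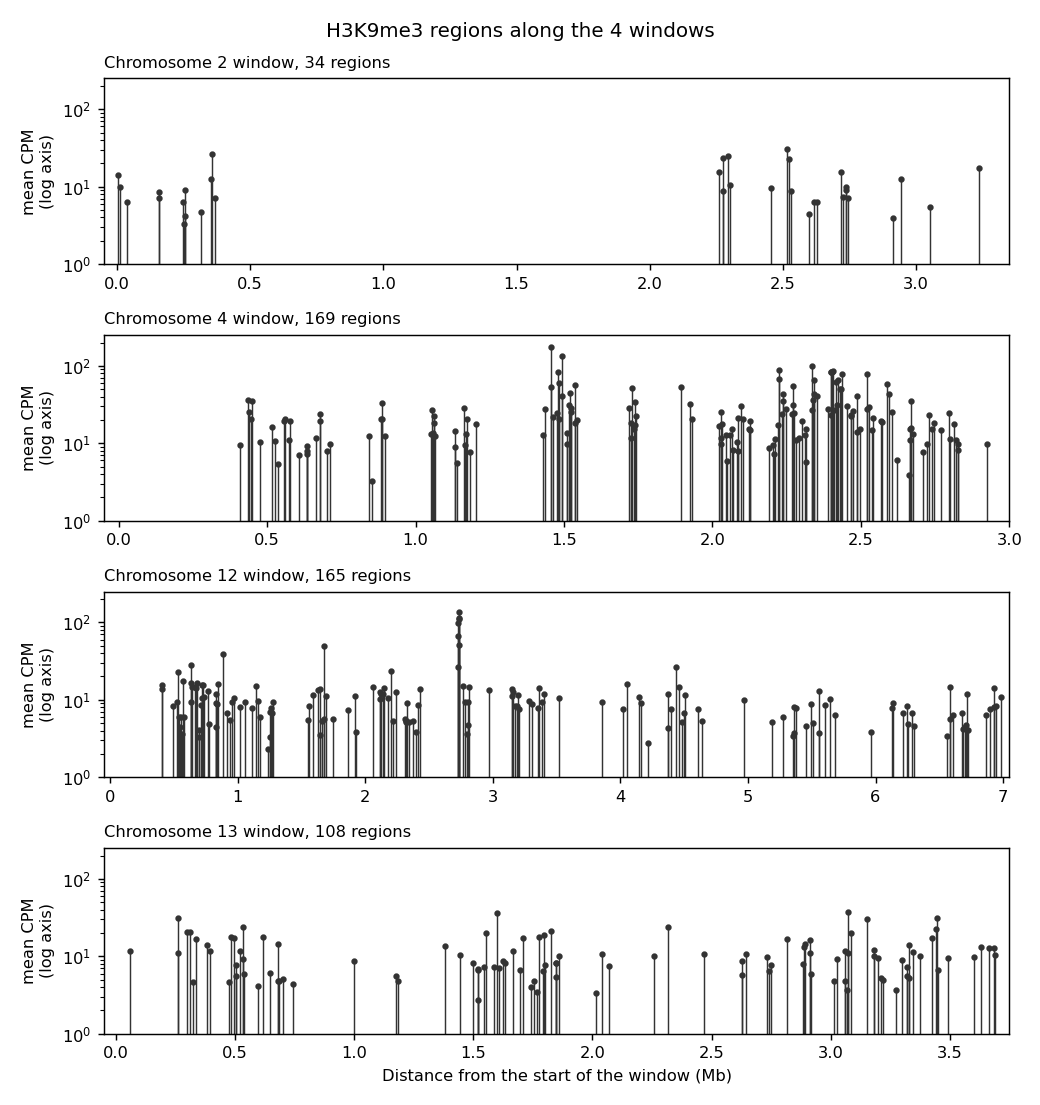
Regions along the 4 windows, with distance from the window start in Mb on the x axis and the mean level of each region over the 4 libraries in CPM on a log y axis. The chromosome 4 window is the densest, at 57.3 regions per Mb, and the chromosome 2 window has a stretch of 1.89 Mb with no region.

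Single regions were also stronger on chromosome 4 and not elsewhere. The median region of that window held 12, 15, 51 and 32 counts, against 7, 9, 31 and 16 in the rest of the chromosome. Its median level over the libraries was 19.6 CPM against 10.8. The medians of the other windows, 8.87 CPM on chromosome 2, 8.79 on chromosome 12 and 9.64 on chromosome 13, lay under those of the rest of their chromosomes, at 11.4, 10.3 and 11.4 CPM. Regions were wider on chromosome 4 as well, with a median width of 354 bp against 282 bp in the rest, and 13 of its 169 regions reached 800 bp (7.69%, against 1.81% of all regions). In these bulk libraries, fewer cells that carry the mark and less of the mark per cell cannot be told apart.

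Regions joined at gaps of at most 10 kb formed 52 groups in the chromosome 4 window, of which 16 were single regions. The chromosome 12 window broke into 111 groups with 80 single regions, and the chromosome 13 window into 69 with 46 single. The median distance between neighbours was 6.34 kb on chromosome 4, 13.5 kb on chromosome 2, 14.7 kb on chromosome 12 and 14.9 kb on chromosome 13. The densest 500 kb of the genome by number of regions lay in the chromosome 4 window, from 147.0 to 147.5 Mb, where 65 regions put it at rank 1 of 4927 tiles. By CPM the same tile ranked 17.

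The longest stretch without a region lay at the edge of the window on chromosomes 4 and 12 and inside it on chromosomes 2 and 13. The first 0.409 Mb of the chromosome 4 window had none and holds Tnfrsf1b and Tnfrsf8, which encode the cytokine receptors TNFR2 and CD30. The first 0.404 Mb of the chromosome 12 window had none and holds Odc1, the rate-limiting enzyme of polyamine synthesis, and Hpcal1. On chromosome 13 it ran for 0.252 Mb, from 65745653 to 65998119, over 9 genes. The chromosome 2 stretch ran for 1.89 Mb, from 175167432 to 177061092, over 37 genes of which 20 code for protein and 5 have zinc finger symbols. The identical starts of Gm4724 and Gm2026 printed above both lie in it.

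Promoters in that chromosome 2 stretch were the most shared of the sets compared. A promoter of 300 bases was counted as shared where at least 50% of its 50-base words also stood in the promoter of another gene on either strand. In the chromosome 2 stretch 23 of 26 promoters were shared (88.5%), against 9 of 30 (30.0%) in the rest of that window. In the longest empty stretches of the other windows 0 of 5 promoters were shared on chromosome 4, 0 of 7 on chromosome 12 and 3 of 6 on chromosome 13. The share was 15.4% of 39 on chromosome 4, 23.5% of 68 on chromosome 12 and 26.0% of 73 on chromosome 13, while it was 9.87% over all 32851 promoters. Promoters of neighbours that overlap count as shared too, and genes with several starts count once per start. The part of read placement in the missing regions was not tested.

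All protein-coding genes with a zinc finger symbol in the chromosome 4 window had a region. Of the 51 protein-coding genes in the windows whose symbol marks a zinc finger gene, 29 had a region within 5 kb of the gene span, 56.9%, against 123 of 377 (32.6%) outside the windows. By window these were 16 of 16 on chromosome 4, 11 of 25 on chromosome 13, 1 of 9 on chromosome 2 and 1 of 1 on chromosome 12. The chromosome 12 window thus holds a single gene with such a symbol, Zfp996, among 44 protein-coding genes, so symbols alone do not show it to be a zinc finger cluster, and proteins were not used here. Of the other 107 protein-coding genes in the windows, 31 had a region. Rsl1 and Rslcan18 of the chromosome 13 window, zinc finger genes known in mice for control of sex-biased liver genes, had none.

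By summed counts Zfp978 was the most covered gene of the windows, a locus of chromosome 4 from 147124882 to 147392027 that spans 31 regions. Its regions held 606, 773, 2462 and 1557 counts, or 2330 ± 159 CPM in sgNTC and 2351 ± 283 CPM in sgPrdm12 (SD, n = 2 each). Zfp993 followed with 20 regions and 340, 454, 1472 and 949 counts, then Zfp982 with 9 regions and 149, 283, 721 and 420 counts. Groups overlapped at all 3 genes in CPM, and their log2 fold changes were 0.01 (SE 0.15), 0.08 (SE 0.16) and -0.13 (SE 0.18). Zfp992 held 172, 190, 609 and 432 counts, largely in a single region of 1721 bp at 146454984 to 146456705, the most covered of all 476 at 173 CPM. Such sums are not corrected for the length of the span, which is 479 kb for Zfp993 and 20.4 kb for Zfp992. Spans overlap here, and all 8 regions of Zfp981, with 148, 189, 612 and 369 counts, were also counted for Zfp993.

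Genes with a zinc finger symbol in the other windows carried far fewer counts. On chromosome 13, Zfp595 held 12, 22, 71 and 37 counts and Zfp369 held 12, 16, 69 and 32, each in 1 region. On chromosome 2, Zfp971 held 16, 9, 38 and 32 counts in 1 region. Zfp996 on chromosome 12 had 1 region as well, over its start. The most covered gene of the chromosome 13 window was no zinc finger gene but Adcy2, an adenylate cyclase that makes cyclic AMP. It had 16 regions and 128, 159, 670 and 285 counts over a span that runs past the window's end. Most of these counts lie past that end. Inside the window, the region at 68630437 held 6, 15, 49 and 11 counts and that at 68663163 held 12, 5, 46 and 17. A further 2 regions from 68684224 to 68690919 held 18, 10, 76 and 42. On chromosome 12 the most covered gene was Gm9257, with 5 regions and 39, 44, 165 and 111 counts.

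Along genes with a zinc finger symbol and a known strand, the regions were spread differently inside and outside the windows. Inside, 40.3% of 62 regions in 19 genes lay in the first part of 3 equal parts of the span in the direction of transcription, 35.5% in the middle and 24.2% in the last. Outside, 25.6% of 180 regions in 83 genes lay in the first, 26.7% in the middle and 47.8% in the last. The windows' shares rest on few genes with overlapping spans, Zfp993 giving 18 of the regions and Zfp981 8, and no test was made. They leave out Zfp978, the most covered gene of the windows, and Zfp992, because the promoters used to read the strand included neither.

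Gene starts themselves were seldom marked. Of 236 promoters in the windows 4 overlapped a region (1.69%), against 745 of 32851 in all (2.27%). These shares are not corrected for the density of regions, which was 28.1 per Mb in the windows and 17.4 over the table. The 236 promoters include none of Zfp978 or Zfp992. The starts of Zfp996 and 5730507C01Rik, both in the chromosome 12 window, are shown because they are the marked starts with many CG, the dinucleotide that is methylated in mammals. Both are the 250 bases upstream on the plus strand of GRCm38.p6, from RefSeq, at chr12:18387241-18387490 and chr12:18514260-18514509, with each CG in capitals.
Zfp996: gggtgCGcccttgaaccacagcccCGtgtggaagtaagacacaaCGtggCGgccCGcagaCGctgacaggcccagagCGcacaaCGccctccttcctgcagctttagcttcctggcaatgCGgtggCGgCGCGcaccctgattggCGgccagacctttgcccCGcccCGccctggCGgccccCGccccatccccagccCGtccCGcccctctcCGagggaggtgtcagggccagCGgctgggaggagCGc
5730507C01Rik: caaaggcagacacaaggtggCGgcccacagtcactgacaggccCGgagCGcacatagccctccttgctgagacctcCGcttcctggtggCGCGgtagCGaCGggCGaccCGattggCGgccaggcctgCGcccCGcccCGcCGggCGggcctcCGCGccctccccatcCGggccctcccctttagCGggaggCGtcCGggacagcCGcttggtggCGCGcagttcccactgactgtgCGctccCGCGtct
Zfp996 has 22 CG and 5730507C01Rik 28 in these 250 bases, where the median of all promoters is 6 and 14.8% and 7.61% of promoters have as many or more. The region at Zfp996, from 18387153 to 18388174, measured 38.1 ± 0.270 CPM in sgNTC and 40.5 ± 3.85 CPM in sgPrdm12 (SD, n = 2 each). The region at 5730507C01Rik held 3, 0, 30 and 27 counts, a higher CPM in both sgPrdm12 libraries, with a log2 fold change of 2.70 (SE 0.98, edgeR adjusted p = 0.371) that rests on 3 counts in sgNTC. The other 2 marked starts, of Gm40982 on chromosome 13 and 4933438K21Rik on chromosome 4, have 1 and 0 CG.

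Between the guides, both sgPrdm12 libraries were above both sgNTC libraries in the summed windows of chromosomes 2, 12 and 13 but not 4, and none of the 4 differences passed edgeR's adjusted test. Each window was tested as 1 tile beside tiles of 1 Mb over the rest of the genome. The chromosome 13 window measured 1000 CPM in sgNTC-1, 981 in sgNTC-2, 1268 in sgPrdm12-1 and 1323 in sgPrdm12-2. Its groups did not overlap, and the log2 fold change of 0.39 did not pass (SE 0.13, edgeR adjusted p = 0.0935). DESeq2's Wald test gave 0.38 with an adjusted p of 0.0453, so this value sits at the threshold. The chromosome 12 window measured 1648, 1846, 2188 and 2346 CPM, again with no overlap, and a log2 fold change of 0.37 (SE 0.15, edgeR adjusted p = 0.173).

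The chromosome 2 window measured 336, 354, 371 and 375 CPM, a small difference with no overlap and a log2 fold change of 0.11 (SE 0.11, edgeR adjusted p = 0.672). The chromosome 4 window measured 4183, 4495, 3969 and 4555 CPM, so its groups overlapped, at a log2 fold change of -0.03 (SE 0.17, edgeR adjusted p = 0.965). None of the 4 windows passed in either direction, where 1.44% of the 2561 tiles tested by edgeR were higher and 2.58% lower. At unadjusted p under 0.05 there were 2, chromosome 13 at 0.00559 and chromosome 12 at 0.0177. Within batch 1 and batch 2 the log2 fold changes were 0.34 and 0.43 on chromosome 13, 0.41 and 0.35 on chromosome 12, 0.14 and 0.08 on chromosome 2 and -0.08 and 0.02 on chromosome 4. The median tile of the rest of these chromosomes was at 0.01, -0.02, 0.00 and 0.02 for chromosomes 2, 4, 12 and 13.

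**Figure D2:**
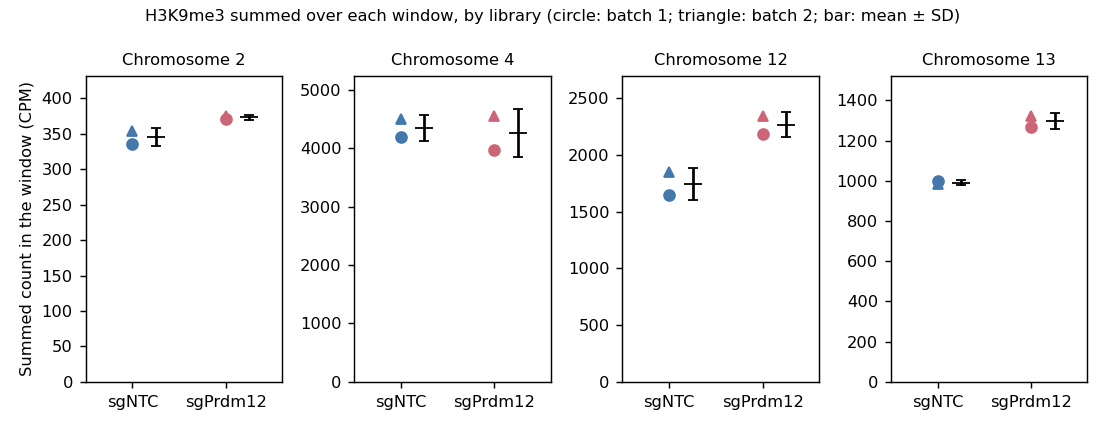
Level of each window in each library in CPM, with a panel per window, a point per library (circles batch 1, triangles batch 2) and the group mean ± SD as a bar beside them. On chromosomes 2, 12 and 13 both sgPrdm12 libraries lie above both sgNTC libraries, while on chromosome 4 the sgNTC libraries, at 4183 and 4495 CPM, lie between the sgPrdm12 libraries, at 3969 and 4555 CPM.

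Within the chromosome 13 window 1 stretch of 500 kb passed the test on its own. From 66.5 to 67.0 Mb its 25 regions held 124, 145, 903 and 564 counts. The tile rose by 0.91 on the log2 scale (SE 0.15, edgeR adjusted p = 3.72e-05), by 0.80 in batch 1 and 1.02 in batch 2. It passed under every alternative run, and its weakest result was without sgPrdm12-2 (adjusted p = 0.049). In tiles of 250 kb both parts rose, by 0.97 (SE 0.19, edgeR adjusted p = 0.0123) and 0.82 (SE 0.19, edgeR adjusted p = 0.0421). Without the tile, the other 83 regions of the window measured 818 CPM in sgNTC and 971 CPM in sgPrdm12, a log2 ratio of 0.25.

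The stretch holds 29 genes, of which 8 code for protein and 13 are pseudogenes. Of its 16 tested regions, 15 had a log2 fold change above 0, where 49.2% of all tested regions did. At edgeR's unadjusted p under 0.05 there were 5, where 6.42% of all tested regions passed in either direction. The smallest edgeR adjusted p of a single region was 0.28. The stretch was picked by the sum of these same regions, so these counts add no support to its rise. The region at 66828067 to 66829218, outside any gene, held 5, 12, 95 and 44 counts. The region at 66668465 to 66668969, in Gm18412 and within 5 kb of Zfp640, held 3, 4, 62 and 24. The most covered region, at 66601518 to 66602238 near LOC115486435, measured 24.4 ± 12.9 CPM in sgNTC and 48.0 ± 6.75 CPM in sgPrdm12 (SD, n = 2 each). Both sgPrdm12 libraries were above both sgNTC libraries in CPM at each of the 3, with log2 fold changes of 1.44, 1.98 and 0.98 in that order. Uqcrb, a subunit of respiratory complex III, Mterf3, a mitochondrial transcription regulator, and Ptdss1, which makes phosphatidylserine, lie at the far end of the stretch and had no region.

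A tile of the chromosome 12 window, from 20.5 to 21.0 Mb, rose as well but with less support. Its 13 regions held 79, 73, 451 and 266 counts, a log2 fold change of 0.68 (SE 0.18, edgeR adjusted p = 0.0279). It was 0.45 within batch 1 and 0.93 within batch 2. The call was lost without sgNTC-2 (adjusted p = 0.351), without sgPrdm12-1 (0.218) or without sgPrdm12-2 (0.493), and with DESeq2's Wald test (0.0737) and limma-voom (0.0742). In tiles of 250 kb or 1 Mb, none over this stretch passed. With batch as a block a further tile passed, chromosome 12 from 18.5 to 19.0 Mb. That tile held 28, 73, 339 and 177 counts and rose by 0.86 on the log2 scale (SE 0.23, edgeR adjusted p = 0.0112). Without the block, the only chromosome 12 tile of 1 Mb in the window to pass ran from 18.0 to 19.0 Mb. The rise there was 0.46 (SE 0.11), at an adjusted p of 0.0126 by edgeR. In tiles of 250 kb the chromosome 12 window had no call.

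Of the 30 tiles of 500 kb in the windows, 2 rose (6.67%), where 0.846% of all 4846 tiles did, and 0 fell, where 1.8% did. At edgeR's unadjusted p under 0.05, 7 were higher and 1 lower, and DESeq2's Wald test and limma-voom each called 1 higher and 0 lower. The log2 fold change was above 0 in 13 of 14 tiles on chromosome 12 and 7 of 7 on chromosome 13, in 2 of 6 on chromosome 4 and 2 of 3 on chromosome 2, and in 50.2% of all tiles. On chromosome 4 it ran from -0.40 to 0.09. Tiles of a window are neighbours and share libraries, so they are not independent.

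**Figure D3:**
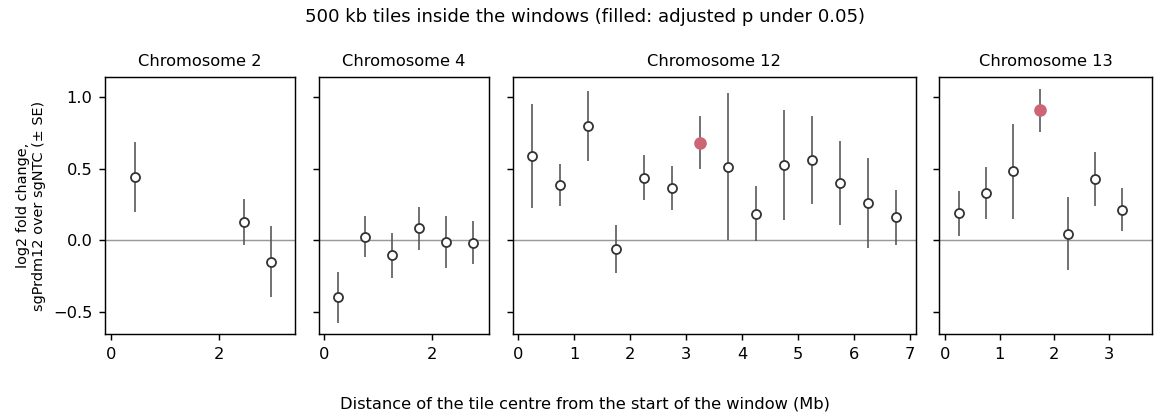
Log2 fold change of each 500 kb tile of the windows (sgPrdm12 over sgNTC, with its SE as bars) by its distance from the window start in Mb, with filled points where edgeR's adjusted p was under 0.05. The highest called tile is on chromosome 13 at 0.91, and the chromosome 4 tiles stay between -0.40 and 0.09.

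Few single regions passed the test, and many held too few counts to be tested. Of the 476 regions 364 had enough counts to be tested, namely 24 of 34 on chromosome 2, 160 of 169 on chromosome 4, 108 of 165 on chromosome 12 and 72 of 108 on chromosome 13. By edgeR 0 were higher at adjusted p under 0.05, where 0.11% of all tested regions were, and 1 was lower, where 0.377% were. At unadjusted p under 0.05, 19 were higher (5.22% against 3.32% of all) and 10 lower (2.75% against 3.09%). That split did not hold across tools, with 5 higher and 15 lower by limma-voom and 7 higher and 4 lower by DESeq2's Wald test. limma-voom called 0 in either direction at adjusted p under 0.05, and DESeq2 called 0 of the 67 regions to which it gave an adjusted p.

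The lower region lies in the chromosome 12 window at 21554946 to 21555267, in the lncRNA gene LOC115487949. It held 16 and 25 counts in sgNTC against 12 and 6 in sgPrdm12, where the libraries are deeper. It fell by 2.73 on the log2 scale (SE 0.60, edgeR adjusted p = 0.00738). The call was lost with limma-voom (adjusted p = 0.105) and without sgNTC-2 (0.266), and DESeq2 gave the region no adjusted p.

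Across tested regions the medians in the chromosome 12 and 13 windows lay above those of the rest of their chromosomes. The median log2 fold change was 0.25 on chromosome 12 and 0.36 on chromosome 13, against -0.08 and 0.01 in the rest of those chromosomes. It was 0.00 on chromosome 4 and 0.02 on chromosome 2, against -0.04 and 0.03. Both sgPrdm12 libraries were above both sgNTC libraries in 102 of the 364 regions (28.0%), where 20.1% of all tested regions were, and below them in 50 (13.7%), where 16.4% were. By window the higher ones were 39 of 108 on chromosome 12, 27 of 72 on chromosome 13, 29 of 160 on chromosome 4 and 7 of 24 on chromosome 2. The lower ones were 5, 6, 37 and 2 in the same order, so on chromosome 4 more were lower than higher. These medians and counts hold only regions that passed the filter. That filter works on library totals without TMM, so a weak region can pass through the sgPrdm12 libraries alone. The chromosome 13 region at 66756246, with 2, 0, 21 and 14 counts, was tested in this way.

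**Figure D4:**
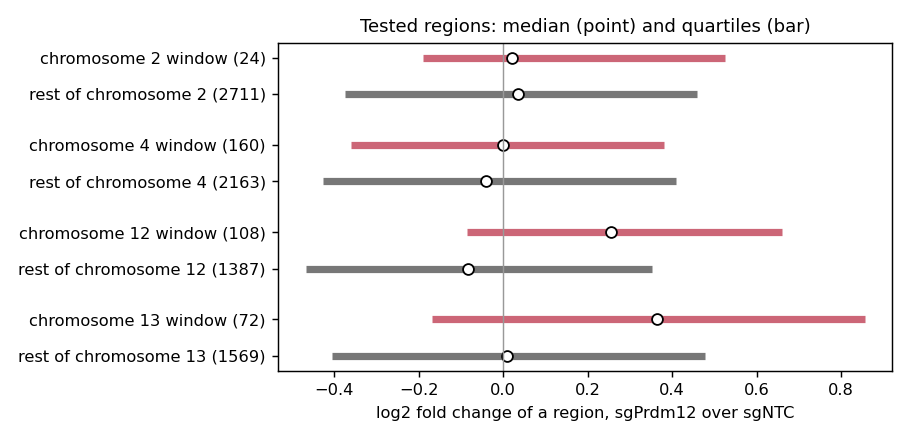
Log2 fold change (sgPrdm12 over sgNTC) of the tested regions in each window and in the rest of its chromosome, with points for the medians, bars from the lower to the upper quartile and the number of regions in parentheses. The medians are 0.25 on chromosome 12 and 0.36 on chromosome 13 and lie near 0 elsewhere.

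Weak regions of the whole table had a slightly higher fold change than strong ones, and the windows on chromosomes 12 and 13 hold many weak regions. In the lowest quartile of mean CPM the median over all regions was 0.12, and in the 3 higher quartiles it was -0.02, -0.08 and -0.04. On chromosome 12 the medians in the same 4 quartiles were 0.54, 0.26, 0.16 and 0.34, and on chromosome 13 they were 0.73, -0.05, 0.45 and 0.30. The chromosome 12 median lay above that of all regions in each quartile, and the chromosome 13 median in 3 of 4. On chromosome 4 the medians were 0.40, -0.22, 0.22 and -0.07, and on chromosome 2 they were 0.94, -0.32, -0.03 and 0.08. In the lowest quartile all 4 windows thus lay above 0.12. Some quartiles hold few regions, down to 4 on chromosome 2 and 10 on chromosome 13. On chromosome 4, 101 of the 160 tested regions were in the top quartile. The parts of the level of a region and of the filter in the shift were not tested.

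Named regions show the range on chromosome 4. The region at 147667317 to 147667751, outside any gene, held 3, 7, 61 and 43 counts, with a log2 fold change of 1.85 (SE 0.59, edgeR adjusted p = 0.213). The region at 145559658 to 145559846, near Gm21978, held 18, 26, 30 and 20 counts, with a log2 fold change of -1.34 (SE 0.48, edgeR adjusted p = 0.339). Neither passed, though the groups did not overlap in CPM at either. At 147336724 to 147337159 in Zfp978, the third most covered region of that window, 91, 87, 212 and 123 counts gave -0.65 (SE 0.30, edgeR adjusted p = 0.712), while the gene as a whole was at 0.01.

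The strongest patch of the chromosome 12 window lay outside any gene. At 20227458 to 20234369, 7 regions within 6.91 kb held 321, 446, 1754 and 1149 counts, 28.3% of the CPM of the window. Its log2 ratio was 0.41 in batch 1 and 0.40 in batch 2, close to the window's own. On chromosome 4 the largest group of regions, 13 within 47.2 kb at 147390311 to 147437473 at the edge of Zfp978 and over Gm46898, held 510, 612, 1946 and 1188 counts. Its log2 ratios were -0.11 and -0.01. On chromosome 2 the most covered region, at 177314591 to 177315195 in Gm14412, held 22, 29, 50 and 53 counts, with a log2 fold change of -0.44 (SE 0.40, edgeR adjusted p = 0.985).

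Summed per gene, 82 genes of the windows were tested. Of these 1 was higher (1.22%), where 1.08% of all 7775 tested genes were, and 1 was lower (1.22%), where 1.71% were, so the windows were near the background. The higher gene was the lncRNA Gm45966 in the chromosome 13 stretch that rose, with 28, 12, 162 and 93 counts and a log2 fold change of 1.09 (SE 0.34, edgeR adjusted p = 0.0486). It did not pass with batch as a block (adjusted p = 0.0964) or without sgNTC-2 (0.872), where its log2 fold change was 0.49. It also failed without sgPrdm12-1, without sgPrdm12-2, with DESeq2 size factors, with no filter, with DESeq2's Wald test, with limma-voom and with gene spans taken without the 5 kb on each side. The lower gene was LOC115487949 through the single region described above.

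Zinc finger genes were taken by symbol, so any with another kind of name counts among the other genes here. No gene of the windows with such a symbol passed the test. Of the 29 with a region 27 were tested by edgeR, 0 were higher and 0 lower, and their median log2 fold change was 0.01. At unadjusted p under 0.05, 1 was higher (Zfp640) and 1 lower (Zfp988). limma-voom called 0, and DESeq2's Wald test 0 of the 16 genes to which it gave an adjusted p. Of 107 tested zinc finger genes outside the windows 4 were higher and 0 lower by edgeR, with a median of 0.31, while limma-voom called 1 higher and DESeq2's Wald test 0 of 59 with an adjusted p. The difference between the lists was not tested. The 28 other protein-coding genes tested in the windows had 0 higher and 0 lower by edgeR (2 and 0 at unadjusted p under 0.05) and a median of 0.53, and all 7775 genes had -0.04. The largest value among zinc finger genes of the windows was at Zfp640, with a log2 fold change of 1.97 (SE 0.71, edgeR adjusted p = 0.125). Its only region is the one in Gm18412 described above. Zfp600, whose start was printed above, held 42, 55, 238 and 158 counts and had 0.50 (SE 0.26). Rex2, whose upstream bases are nearly the same, held 89, 82, 261 and 194 and had -0.11 (SE 0.23).

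Genes of the machinery that places or reads the mark had a region about as often as other genes. Of 24 genes for KRAB repression and H3K9 methylation, 7 had one (29.2%, against 25.7% of 21365 protein-coding genes outside the windows without a zinc finger symbol), namely Morc2a, Setdb2, Morc3, Daxx, Ehmt2, Cbx3 and Atf7ip. By edgeR and limma-voom 0 were higher and 0 lower, as were 0 of the 3 to which DESeq2 gave an adjusted p, with 1 higher at edgeR's unadjusted p under 0.05 and a median log2 fold change of 0.09. The 7 log2 fold changes ran from -0.52 (SE 1.13) at Ehmt2, an H3K9 methyltransferase, to 0.98 (SE 0.84) at Setdb2, which is another, with 0.74 (SE 0.37) at Cbx3, a reader of the mark.

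Ratios within a library do not depend on how libraries are scaled. The 4 windows together held 0.612% and 0.609% of the counts in sgNTC and 0.992% and 0.998% in sgPrdm12. With the 10 most covered regions of the table left out, the shares were 1.02% and 1.09% against 1.22% and 1.29%. The chromosome 13 window held 3.57% and 3.55% of the counts of its chromosome in sgNTC, and in sgPrdm12 it held 4.58% and 4.59%. The log2 ratio of this window to the rest of the chromosome, which holds none of those 10 regions, was 0.38 higher in sgPrdm12.

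For chromosome 12 the log2 ratio to the rest was -4.65 and -4.63 in sgNTC against -3.68 in both sgPrdm12 libraries, a difference of 0.96. The rest of chromosome 12 holds 1 of the 10 most covered regions, and without it the difference was 0.53. For chromosome 2, whose rest holds 2 of them, the difference was 1.43 with and 0.10 without. For chromosome 4 it was -0.02, with the groups overlapping. The exact two-sided permutation test over 2 against 2 libraries cannot go below p = 0.333, which chromosomes 2, 12 and 13 reached, with 0.444 after adjustment over the 4 windows.

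**Figure D5:**
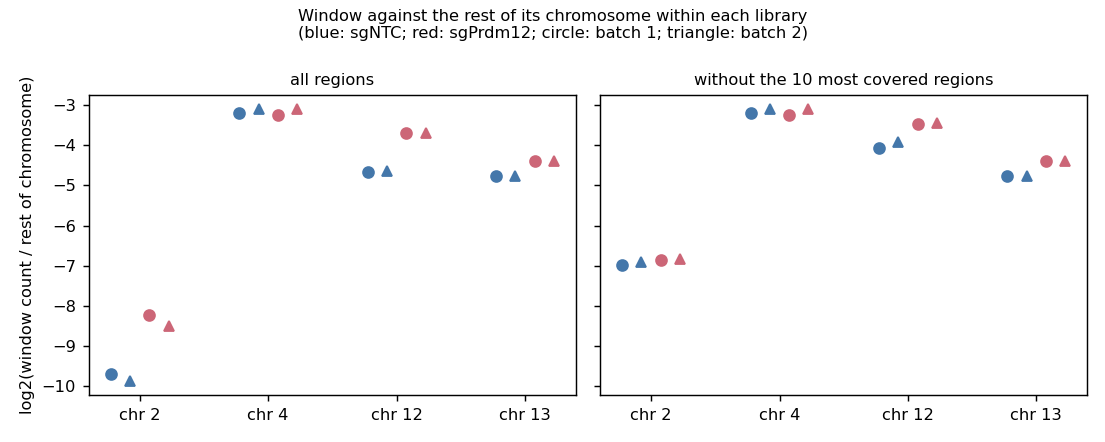
Log2 ratio of the counts in each window to those in the rest of its chromosome, with a point per library (blue sgNTC, red sgPrdm12), over all regions on the left and without the 10 most covered regions of the table on the right. In the right panel, on chromosomes 2, 12 and 13 both sgPrdm12 libraries lie above both sgNTC libraries, by 0.10, 0.53 and 0.38 on average, and on chromosome 4 they overlap.

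Set against each other, the chromosome 4 window was lower relative to chromosomes 12 and 13 in sgPrdm12, while chromosomes 12 and 13 did not separate from each other. The log2 ratio of chromosome 4 to chromosome 12 was 1.34 and 1.28 in sgNTC and 0.86 and 0.96 in sgPrdm12, a difference of -0.41. To chromosome 13 it was 2.06 and 2.20 against 1.65 and 1.78, a difference of -0.42. The ratio of chromosome 12 to 13 overlapped between groups, with a difference of -0.01 (exact permutation p = 1). The chromosome 2 window gave differences of 0.14 against chromosome 4, -0.26 against chromosome 12 and -0.27 against chromosome 13. Over the 6 pairs, the 5 without overlap had the smallest exact p possible, 0.333, and 0.40 after adjustment.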

How the data were processed

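H3K9me3 CUT&Tag counts of mouse CD8+ T cells were analysed, with 2 libraries for sgNTC and 2 for sgPrdm12. The deposited table gives, per region and library, a whole-number read count that the authors left unnormalized, and a deposited normalized signal that equals the count times 1 constant per library (1.29, 1.09, 0.638 and 1.12 in the order sgNTC-1, sgNTC-2, sgPrdm12-1, sgPrdm12-2). Trimmomatic, Bowtie2, MACS2 and DiffBind are named per the submitters' processing notes, without versions. No source used here describes how regions were called or merged. The notes name GRCm39, but by recalled chromosome lengths 66 regions lay past GRCm39 ends and 0 past GRCm38 ends, so positions were read as GRCm38 and are printed as the table lists them. Whether starts count from 0 or 1 is unknown. A region set that leans on the deeper sgPrdm12 libraries could favour regions high in that group.

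Counts per region, per 500 kb tile, per window beside 1 Mb tiles, and per gene (RefSeq GRCm38.p6 span with 5 kb on each side, protein-coding and lncRNA) were tested over the whole table with edgeR 4.0.16 in R 4.3.3 (quasi-likelihood, TMM, filterByExpr, no block, two-sided, Benjamini-Hochberg adjusted p under 0.05). The SE is the fold change divided by the root of the quasi-F value. Ratios between sums of counts within a library used an exact permutation test over libraries (scipy 1.17.1). The test was checked on simulated data.

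Named regions were, per window, the 3 with the highest mean CPM, the 2 highest and the 2 lowest by log2 fold change among tested regions with a mean of at least 20 counts, and those called. Named genes were the 5 most covered protein-coding genes per window and those called. Other regions of the called tile, and Zfp600, Rex2, Zfp640, Zfp988, Setdb2, Ehmt2 and Cbx3, were named after their values were seen. A part of the rule that needed protein sequences was not used here. The members and lists were chosen with earlier results of these data known.

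Per the labels the replicate number is also the batch number in each group, which pairs the libraries by batch. The difference between replicates in sgNTC correlated with that in sgPrdm12 at 0.0035 across 37390 regions and 0.011 across 4846 tiles of 500 kb. Alternatives were DESeq2 1.42.0 (size factors and Wald test), total counts, no filter, the batch as a replicate block, limma-voom (limma 3.58.1), an adjusted p of 0.1, other tile sizes, the authors' constants, leaving out the 10 most covered regions, and each library left out. Their use on tiles and genes, and gene spans without flanks, were added after seeing the data.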

Additional observations from a re-analysis of the deposited data

How the results depend on the processing

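Scaling moved the results most. On the scale of total counts and on that of the authors' constants the whole genome shifted (median log2 fold change of 1 Mb tiles 0.57 and 1.02), and the windows followed, at 0.68 and 1.13 on chromosome 2, 0.53 and 0.99 on chromosome 4 (there of opposite sign to the -0.03 under TMM), 0.94 and 1.39 on chromosome 12 and 0.95 and 1.40 on chromosome 13. The same scales called 17 and 125 member regions higher, 26 and 30 tiles and 23 and 58 genes. Relative to the genome's own shift, chromosome 4 stayed lowest of the 4 windows under both. With DESeq2's Wald test the chromosome 13 window passed at 0.38. Higher tiles numbered 1 with DESeq2's Wald test, 1 with limma-voom and 1 to 2 with a library left out. Higher genes numbered 0 with DESeq2 size factors, no filter, the replicate block, DESeq2's Wald test, limma-voom or spans without flanks, and 0 to 1 with a library left out. The lower region was not called by DESeq2's Wald test or limma-voom (0 each), and 0 to 1 were called with a library left out. The lower gene was not called by DESeq2's Wald test (0), and 0 to 1 were called with a library left out. With a library left out the chromosome 4 window ran from -0.14 to 0.068. Its log2 ratio to its chromosome ran from -0.090 to 0.050 and was 0.10 by the median count of a region, and chromosome 12 against 13 ran from -0.11 to 0.085. Among named items, values of opposite sign that passed were 0.78 at the Vmn2r-ps16 region and 0.89 at Zfp982 with the authors' constants, and 0.57 and 1.02 at Zfp981 with total counts and those constants. The causes were not tested.

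The replicate block changed the call of Gm45966 (log2 fold change 1.12, adjusted p = 0.0964) and raised the higher tiles from 2 to 3, and it changed no other call. Over 50 named items, 48 values newly passed, all 48 with total counts or the authors' constants, and 16 no longer passed. Depth limits single regions: 112 of 476 were too low to test, and sgNTC held a median of 7 and 9 counts per region over the table. With 2 libraries a group, ratios could not pass any threshold below 0.333. Intervals and tests cover these libraries only.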
